A study of Homo sapiens with 8 samples.

Results

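Measurements came from HaCaT, an immortal human keratinocyte line derived from skin. The 13 messenger RNAs of the mitochondrial genome and 23 nuclear genes that copy, transcribe, process or regulate that genome were examined. They were chosen by symbol from tables of 24252 genes per library, and all 36 were present and passed the filter on low values. Of the 8 RNA sequencing libraries, 4 were OGD-R, from cells deprived of oxygen and glucose and then resupplied, at a stage labelled early. The other 4 were labelled Control and carry no treatment label. The sources used here give no duration of deprivation or resupply, and nothing in them ties replicates to separate cultures, so the p-values reflect library spread that could be technical. The study, by its title, concerns complex regional pain syndrome, a disorder of lasting limb pain.

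The mitochondrial genome is a small circle that encodes subunits of respiratory complexes I, III, IV and V together with the transfer and ribosomal RNAs needed to translate them. Each strand is read as a long transcript by the polymerase POLRMT with the factors TFAM and TFB2M, and transfer RNAs between the coding regions are then cut out to release the messenger RNAs. How much of each messenger RNA is present therefore depends on copying, transcription, cutting, stabilisation and decay, all carried out by proteins imported from the cytosol. In keratinocytes, as in other cells, these genes are needed to build the respiratory chain.

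All coding regions but MT-ND6 lie on the plus strand, and neighbours lie so close that some share bases. The windows below (chrM:8515-8584 and chrM:10740-10786, plus strand, GRCh38, from GENCODE 29 transcripts) are shown because fragments over the shared bases, in capitals, belong to both genes. MT-ATP8 and MT-ATP6 share 46 bases and MT-ND4L and MT-ND4 share 7, each pair being carried on a single messenger RNA.
MT-ATP8/MT-ATP6: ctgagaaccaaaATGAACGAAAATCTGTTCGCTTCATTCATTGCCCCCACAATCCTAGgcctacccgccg
MT-ND4L/MT-ND4: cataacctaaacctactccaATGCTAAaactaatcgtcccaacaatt
In both windows the capitals open with the ATG start codon of the second coding region, inside the end of the first. How the authors divided shared fragments is not given, so the values of each pair are not independent of each other. MT-ND5 and MT-ND6 abut on opposite strands, and whether strand was used in counting is not given, so MT-ND6 RNA and RNA copied from the other strand at that place cannot be told apart.

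Values are FPKM, fragments per kilobase of gene, scaled to the fragments of the library. Between 17188 and 18170 genes per library were above 0, and the step most often repeated among low values, read as 1 fragment, came to between 0.0201 and 0.0297 FPKM on a 2000-base transcript. Of 9 keratinocyte markers, 9 averaged at least 1 FPKM in OGD-R and in Control, with summed levels of 13607 to 14946 FPKM in OGD-R and 11165 to 12162 FPKM in Control. In the test described below 3 of them rose and 4 fell, while 10.2% of all genes were called higher and 9.69% lower. The part of this in the results below was not tested. The 7 fibroblast markers summed to between 3.82 and 4.99 FPKM in OGD-R and between 0.882 and 8.72 FPKM in Control, with COL1A2 at 0 in every library. Melanocyte, leukocyte and endothelial markers each summed to less than 1 FPKM in every library, with TYR at 0. Log2 values correlated across genes at 0.992 to 0.993 among OGD-R libraries, at 0.992 between Controls 1 and 2 and at 0.991 between Controls 3 and 4, but at 0.874 to 0.881 between these pairs of Controls. OGD-R libraries correlated at 0.940 to 0.947 with Controls 1 and 2 and at 0.879 to 0.887 with Controls 3 and 4. Controls 1 and 2 were thus closer to OGD-R than to Controls 3 and 4. Where a call or direction changes, values against Controls 1 and 2 alone and against Controls 3 and 4 alone are therefore also given.

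The mitochondrial messenger RNAs took a larger part of the OGD-R libraries than of any Control library. Together they made up 27.6, 26.6, 28.2 and 29.1% of the summed FPKM in OGD-R 1 to 4, against 21.1, 20.3, 17.5 and 21.9% in Controls 1 to 4. The lowest OGD-R library lay above the highest Control library, and Control 3 was the lowest of all. The mean share was 27.9 ± 1.02% in OGD-R and 20.2 ± 1.94% in Control (SD, n = 4 each), a difference of 7.71 percentage points. No test was run on this sum, because its members were chosen with results known. The mitochondrial ribosomal RNAs MT-RNR1 and MT-RNR2 had no values, so the summed FPKM leaves them out. In whole-culture RNA, more of these transcripts per cell, less nuclear messenger RNA per cell and a change in the mix of cells cannot be told apart. Nor can a difference in RNA quality or library preparation be told apart from these.

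**Figure D1:**
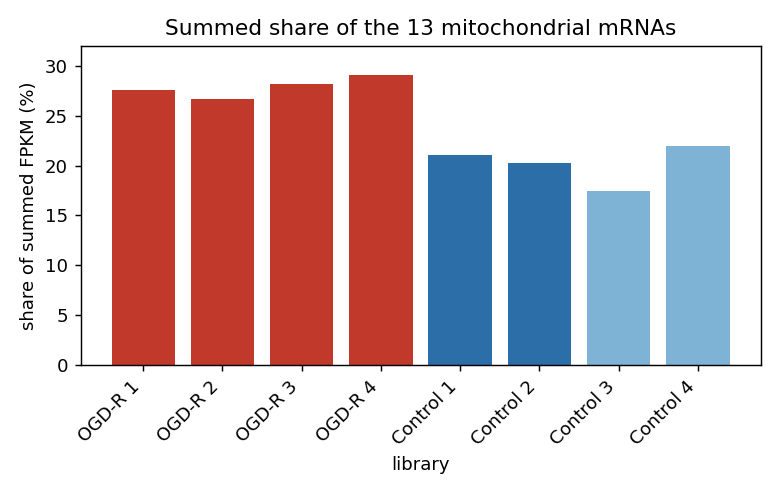
Bars give the share of each library's summed FPKM taken by the 13 mitochondrial messenger RNAs, in percent, for 4 OGD-R libraries and 4 Control libraries (Controls 1 and 2 darker, 3 and 4 lighter). The OGD-R libraries lie between 26.6% and 29.1%, above the Controls at 17.5% to 21.9%.

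Of the 13 mitochondrial messenger RNAs, 8 rose in OGD-R and 0 fell when every gene was tested with limma on log2(FPKM + 1) and a Benjamini-Hochberg adjusted p of 0.05. Over all 11740 genes tested, 10.2% were called higher and 9.69% lower. With no filter on low genes 0 of the 13 were called in either direction. At an unadjusted p of 0.05, 11 of the 13 were higher and 0 lower, against 17.2% and 17.0% of all genes. The median log2 fold change of the 13 was 0.50, against 0.02 over all genes tested. It was 0.37 against Controls 1 and 2 alone and 0.64 against Controls 3 and 4 alone, and 10 of the 13 were called higher in each of these fits, in which 22.8% and 39.2% of all genes were called higher. All 4 OGD-R libraries lay above all 4 Controls for 9 of the 13, as for 15.2% of all genes.

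**Figure D2:**
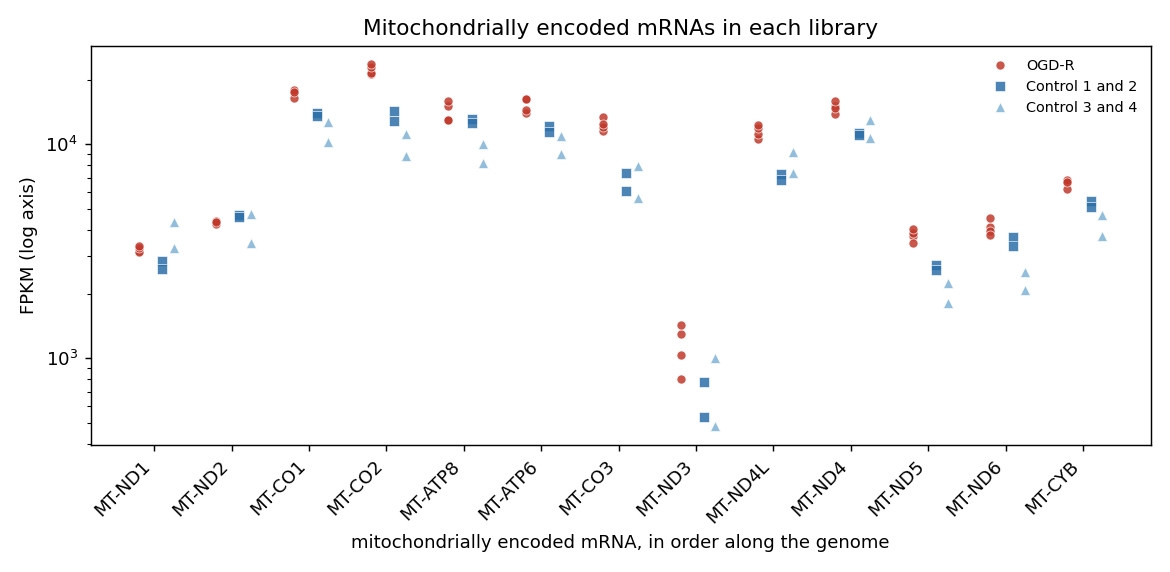
Points give the FPKM of each mitochondrial messenger RNA in each library on a log axis, in order along the genome, with OGD-R left of Controls 1 and 2 and Controls 3 and 4. MT-CO2 lies at 21446 FPKM or more in each OGD-R library and at 14402 FPKM or less in each Control, while MT-ND1 and MT-ND2 overlap between the groups.

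The subunits of cytochrome c oxidase, complex IV, which passes electrons to oxygen, included both messenger RNAs with the largest log2 fold changes of the 13. MT-CO2, the subunit that receives electrons from cytochrome c (ENSG00000198712, chromosome M, 7586 to 8269, plus strand; positions here and below are GRCh38, GENCODE 29), was at 21446, 21669.7, 22992 and 23741 FPKM across OGD-R 1 to 4, against 14402, 12903, 8839.5 and 11142 FPKM in Controls 1 to 4. The groups were far apart, with Controls 3 and 4 below Controls 1 and 2. It averaged 22462 ± 1092 FPKM in OGD-R and 11822 ± 2393 FPKM in Control (SD, n = 4 each), a ratio of 1.90, and its log2 fold change was 0.95 ± 0.14 (SE; limma adjusted p = 0.00332). MT-CO3, another core subunit (ENSG00000198938, chromosome M, 9207 to 9990, plus strand), was at 11547, 12019.9, 13376 and 12411 FPKM in OGD-R, against 7387, 6083, 5593 and 7929 FPKM in Controls 1 to 4. Again the groups did not overlap, but here Control 4 was the highest Control and Control 3 the lowest. Its log2 fold change was 0.88 ± 0.12 (SE; limma adjusted p = 0.00202), and 0.88 and 0.89 against Controls 1 and 2 and Controls 3 and 4 alone. MT-CO1, the catalytic subunit with the oxygen-reducing centre (ENSG00000198804, chromosome M, 5904 to 7445, plus strand), was at 17634, 16464, 18011 and 17589 FPKM in OGD-R, against 14056, 13596, 10276 and 12674 FPKM in Controls 1 to 4. The groups did not overlap. The difference was smaller than for its partners, the log2 fold change being 0.47 ± 0.10 (SE; limma adjusted p = 0.0165). This call was lost without OGD-R 1, 3 or 4, where the highest adjusted p was 0.059.

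Both mitochondrial subunits of ATP synthase, complex V, were measured from overlapping coding regions. MT-ATP6, which forms part of the proton channel (ENSG00000198899, chromosome M, 8527 to 9207, plus strand), was at 16333, 14094, 14548 and 16313 FPKM in OGD-R, against 12241, 11381, 8999.5 and 10910.0 FPKM in Controls 1 to 4. No Control reached the lowest OGD-R library. Its log2 fold change was 0.50 ± 0.11 (SE; limma adjusted p = 0.015), and without OGD-R 1 or 4 the call was lost. MT-ATP8, a small membrane subunit (ENSG00000228253, chromosome M, 8366 to 8572, plus strand), was at 15043, 12955, 13066 and 15968 FPKM in OGD-R, against 13201, 12658, 8217 and 10089 FPKM in Controls 1 to 4. Here OGD-R 2 and 3 lay among Controls 1 and 2, and the groups overlapped. The log2 fold change of 0.39 ± 0.16 (SE) missed the threshold (limma adjusted p = 0.125), but passed against Controls 3 and 4 alone (log2 fold change 0.64; limma adjusted p = 0.00177). MT-CYB, the cytochrome b subunit of complex III (ENSG00000198727, chromosome M, 14747 to 15887, plus strand), was at 6647, 6165, 6832 and 6707 FPKM in OGD-R, against 5454, 5113, 3726 and 4665 FPKM in Controls 1 to 4. The groups did not overlap. MT-CYB had a log2 fold change of 0.49 with an SE of 0.12 and a limma adjusted p = 0.0251, and leaving out 1 OGD-R library, whichever it was, ended the call.

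Complex I, which takes electrons from NADH, has 7 mitochondrially encoded subunits, of which 3 rose. MT-ND5, a proton-pumping subunit (ENSG00000198786, chromosome M, 12337 to 14148, plus strand), was at 3733, 3456, 3864 and 4006 FPKM in OGD-R, against 2741, 2601, 1812 and 2244 FPKM in Controls 1 to 4. The groups did not overlap, and Controls 3 and 4 were the lowest libraries. MT-ND5 rose by 0.70 ± 0.13 in log2 units (SE; limma adjusted p = 0.00967). MT-ND4L, a small membrane subunit (ENSG00000212907, chromosome M, 10470 to 10766, plus strand), was at 10653, 11177, 11977 and 12260.3 FPKM in OGD-R, against 7281, 6831, 7353 and 9253 FPKM in Controls 1 to 4. Control 4 came nearest to the OGD-R libraries without reaching them. MT-ND4L rose by 0.59 ± 0.11 in log2 units (SE; limma adjusted p = 0.00697). MT-ND4, a pumping subunit on the same messenger RNA (ENSG00000198886, chromosome M, 10760 to 12137, plus strand), was at 15155, 13941, 14846 and 15981 FPKM in OGD-R, against 11315, 11013, 10760.0 and 13046 FPKM in Controls 1 to 4. Control 4 was again the nearest Control, below every OGD-R library. MT-ND4 rose by 0.38 ± 0.083 in log2 units (SE; limma adjusted p = 0.0155) but was no longer called without OGD-R 1, 3 or 4, nor when libraries were scaled by the median ratio of genes (limma adjusted p = 0.0547).

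The other 4 complex I subunits did not pass the test. MT-ND3, a core membrane subunit (ENSG00000198840, chromosome M, 10059 to 10404, plus strand), was at 799.9, 1302, 1437 and 1041 FPKM in OGD-R, against 777, 530.2, 481 and 1000.3 FPKM in Controls 1 to 4. It spread widely in both groups, and Control 4 lay above OGD-R 1 (log2 fold change 0.74 ± 0.27, SE; limma adjusted p = 0.0918). It was called higher without Control 4 (limma adjusted p = 0.0381) and against Controls 1 and 2 alone (0.0139). MT-ND6, the subunit encoded on the other strand (ENSG00000198695, chromosome M, 14149 to 14673, minus strand), was at 4104, 3954, 3793 and 4511 FPKM in OGD-R, against 3706, 3361, 2079 and 2527 FPKM in Controls 1 to 4. All OGD-R libraries lay above all Controls, with Controls 1 and 2 close to them and Controls 3 and 4 well below. Its log2 fold change was 0.52 ± 0.18 (SE; limma adjusted p = 0.0771), and it passed without Control 1 (limma adjusted p = 0.0307), against Controls 3 and 4 alone (0.000102) and when libraries were scaled by genes outside the mitochondrial genome (0.034).

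MT-ND1 and MT-ND2 lie first along the plus strand and had the log2 fold changes nearest 0 of the 13. MT-ND1, the subunit at the quinone site (ENSG00000198888, chromosome M, 3307 to 4262, plus strand), was at 3192, 3140.3, 3271 and 3352 FPKM in OGD-R, against 2863, 2628, 3293 and 4363 FPKM in Controls 1 to 4. The OGD-R libraries lay above Controls 1 and 2 and, but for OGD-R 4, below Control 3, with Control 4 the highest. The log2 fold change was 0.0059 ± 0.15 (SE; limma adjusted p = 0.981) with all libraries, 0.24 against Controls 1 and 2 alone (limma adjusted p = 0.0144) and -0.23 against Controls 3 and 4 alone (limma adjusted p = 0.0991). MT-ND2, a pumping subunit (ENSG00000198763, chromosome M, 4470 to 5511, plus strand), was at 4275, 4239.7, 4375 and 4332 FPKM in OGD-R, against 4692, 4564, 3478 and 4729 FPKM in Controls 1 to 4. Control 3 stood below all other libraries, while the other 3 Controls lay above every OGD-R library. Its log2 fold change was -0.0091 ± 0.11 (SE; limma adjusted p = 0.961).

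Because FPKM is given per length, levels can be set in order within a group. In OGD-R the order of mean FPKM ran MT-CO2, MT-CO1, MT-ATP6, MT-ND4, MT-ATP8, MT-CO3, MT-ND4L, MT-CYB, MT-ND2, MT-ND6, MT-ND5, MT-ND1, MT-ND3. MT-CO2, MT-CO1, MT-CYB, MT-ND1 and MT-ND3 were separate from their neighbours in all OGD-R libraries, whereas the ranges from MT-ATP6 to MT-ND4L and from MT-ND2 to MT-ND5 overlapped from gene to gene. In Control the order ran MT-CO1, MT-CO2, MT-ND4, MT-ATP8, MT-ATP6, MT-ND4L, MT-CO3, MT-CYB, MT-ND2, MT-ND1, MT-ND6, MT-ND5, MT-ND3, and the ranges of the first 5 overlapped. The shortest coding regions are MT-ATP8 with 207 bases, MT-ND4L with 297 and MT-ND3 with 346, and how lengths this short were corrected for fragment size is not given.

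Set against the sum of the 13, which removes the scaling of each library, the pool was not made up in the same proportions. MT-CO2 made up 16.4, 17.4, 17.4 and 17.2% of the summed FPKM of the 13 in OGD-R 1 to 4, against 14.4, 13.8, 11.8 and 11.8% in Controls 1 to 4. MT-CO3 made up 8.84, 9.65, 10.1 and 8.98% in OGD-R, against 7.38, 6.52, 7.47 and 8.38% in Controls 1 to 4. Both shares were higher in every OGD-R library than in any Control. MT-ND2 made up 3.27, 3.403, 3.305 and 3.13% in OGD-R, against 4.69, 4.89, 4.64 and 5.001% in Controls 1 to 4, and MT-ND1 2.44, 2.52, 2.47 and 2.43% in OGD-R, against 2.86, 2.82, 4.396 and 4.61% in Controls 1 to 4. These shares were lower in every OGD-R library than in any Control, and the shares of the other 9 overlapped between the groups. By complex, the complex IV messenger RNAs made up 39.7 ± 1.11% of the pool in OGD-R and 34.3 ± 1.28% in Control (SD, n = 4 each), without overlap. Those of complex I made up 32.1, 33.1, 32.9 and 32.9% in OGD-R 1 to 4, against 33.3, 33.8, 39.1 and 39.3% in Controls 1 to 4. The OGD-R libraries were just below Controls 1 and 2 and well below Controls 3 and 4. Shares of 1 pool are tied to each other and show unequal change, not which member moved.

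**Figure D3:**
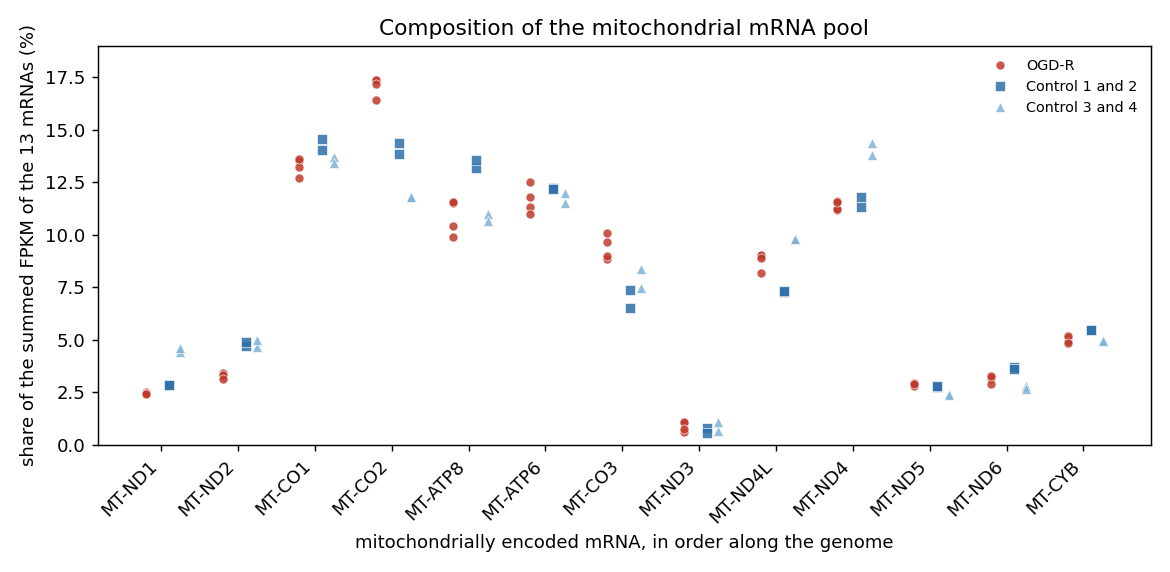
Points give each messenger RNA as a share, in percent, of the summed FPKM of the 13 in the same library, in order along the genome, with OGD-R left of the pairs of Controls. MT-CO2 and MT-CO3 lie higher, and MT-ND1 and MT-ND2 lower, in every OGD-R library than in any Control.

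Most nuclear members, like most genes, were not called, and most had Controls 1 and 2 above Controls 3 and 4. Of 23 nuclear members, 1 rose and 3 fell (10.2% of all genes were called higher and 9.69% lower), with a median log2 fold change of -0.03 against 0.02 over all genes. Controls 1 and 2 both lay above Controls 3 and 4 for 20 of the 23, and for 48.1% of all genes. Every OGD-R library lay between the pairs for 9 of the 23, and for 20.4% of all genes. Controls 1 and 2 were the higher pair in all 9, and 13.6% of all genes had OGD-R between the pairs in this order. Taken singly, all OGD-R libraries lay below Controls 1 and 2 for 37.8% of all genes and above Controls 3 and 4 for 42.8%. Against Controls 1 and 2 alone, 1 was called higher and 14 lower (all genes 22.8% and 32.4%). Against Controls 3 and 4 alone, 14 were called higher and 5 lower (all genes 39.2% and 28.4%). The medians of the 23 were then -0.35 and 0.33.

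**Figure D4:**
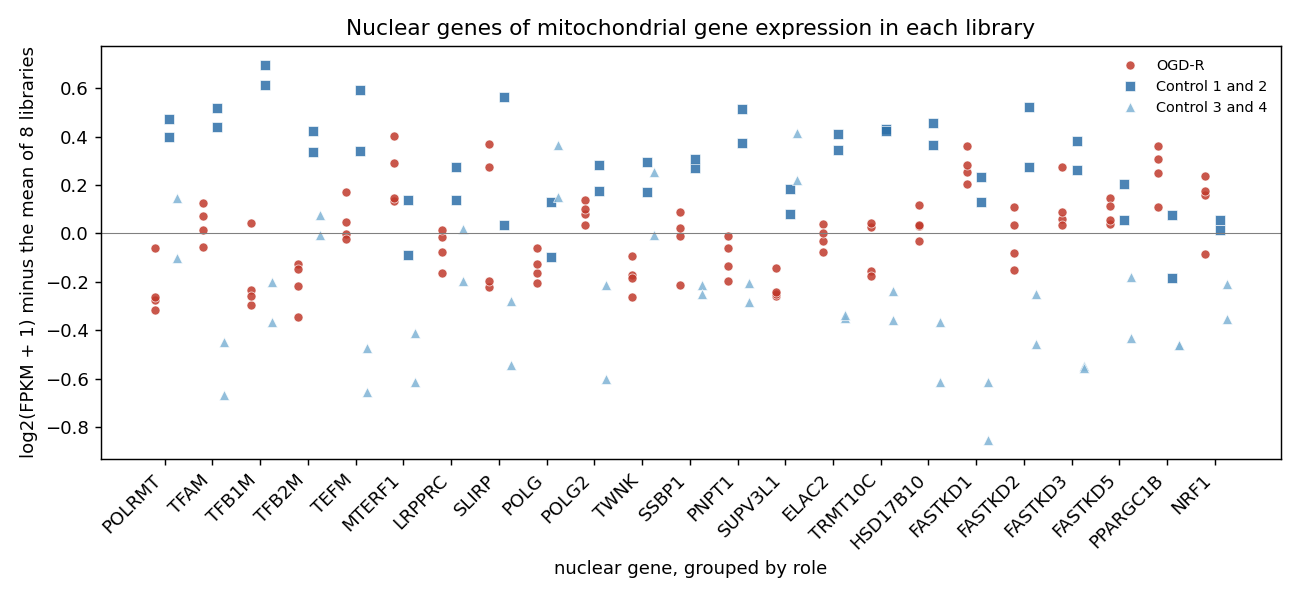
Points give log2(FPKM + 1) of each nuclear gene in each library minus its mean over the 8 libraries, with OGD-R left of Controls 1 and 2 and Controls 3 and 4. For 20 of the 23 genes both darker Control points lie above both lighter ones, and TFB2M, TWNK and SUPV3L1 lie below every Control in OGD-R.

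Of the 6 genes listed under transcription, the initiation factor TFB2M fell and the other 5 did not pass the test with all libraries. TFB2M, which melts the promoter for the polymerase (ENSG00000162851, chromosome 1, 246540560 to 246566324, minus strand), was at 11.5, 13.6, 12.7 and 13.3 FPKM in OGD-R, against 19.02, 20.3, 14.8 and 15.7 FPKM in Controls 1 to 4. Every OGD-R library lay below every Control. On the log2 scale it fell by 0.42 with an SE of 0.12 (limma adjusted p = 0.0427), a call lost without any single OGD-R library, without Control 1 or 2, and with scaling by genes outside the mitochondrial genome (limma adjusted p = 0.0515). POLRMT, the mitochondrial RNA polymerase (ENSG00000099821, chromosome 19, 617224 to 633604, minus strand), was at 10.5, 8.59, 8.88 and 8.96 FPKM in OGD-R, against 15.6, 14.8, 12.2 and 10.1 FPKM in Controls 1 to 4. OGD-R 1 lay just above Control 4, the lowest Control. Its log2 fold change was -0.46 ± 0.14 (SE; limma adjusted p = 0.0524), and it was called lower against either pair of Controls alone (limma adjusted p = 0.000204 and 0.0482), without Control 4 (0.0161) and under each of 3 other scalings (0.0181 to 0.04999).

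TFAM, TFB1M and TEFM were split between the Controls. TFAM, which packages mitochondrial DNA and bends its promoters (ENSG00000108064, chromosome 10, 58385022 to 58399221, plus strand), was at 14.3, 14.9, 13.6 and 15.5 FPKM in OGD-R, against 19.5, 20.7, 10.1 and 8.52 FPKM in Controls 1 to 4. OGD-R lay between the pairs of Controls. The log2 fold change was 0.079 ± 0.27 (SE; limma adjusted p = 0.864) with all libraries, -0.44 against Controls 1 and 2 alone (limma adjusted p = 0.000871) and 0.60 against Controls 3 and 4 alone (limma adjusted p = 0.00022). TEFM, the elongation factor (ENSG00000172171, chromosome 17, 30897336 to 30906820, minus strand), was at 9.003, 8.68, 8.53 and 9.92 FPKM in OGD-R, against 11.3, 13.6, 5.16 and 5.99 FPKM in Controls 1 to 4. It too lay between the pairs, at a log2 fold change of 0.10 with an SE of 0.27 (limma adjusted p = 0.836), and was called in opposite directions against Controls 1 and 2 (-0.42) and Controls 3 and 4 (0.61). TFB1M, a methyltransferase of mitochondrial ribosomal RNA (ENSG00000029639, chromosome 6, 155257509 to 155314493, minus strand), was at 6.33, 8.26, 6.65 and 6.51 FPKM in OGD-R, against 12.7, 13.6, 6.82 and 5.97 FPKM in Controls 1 to 4. OGD-R lay near Controls 3 and 4 and below Controls 1 and 2 (log2 fold change -0.37 ± 0.25, SE; limma adjusted p = 0.338), and it was called lower against Controls 1 and 2 alone (-0.84; adjusted p = 0.000145). MTERF1, which binds a termination site behind the ribosomal RNA genes (ENSG00000127989, chromosome 7, 91692008 to 91880720, minus strand), was at 6.64, 5.84, 7.24 and 5.904 FPKM in OGD-R, against 4.86, 5.86, 3.69 and 3.08 FPKM in Controls 1 to 4. Control 2 lay just above OGD-R 2, the lowest OGD-R library, and the difference for MTERF1 of 0.49 ± 0.17 in log2 units (SE, limma adjusted p = 0.0764) passed the test with scaling by genes outside the mitochondrial genome (limma adjusted p = 0.035), by the median ratio (0.0473), without Control 2 (0.0247) and against Controls 3 and 4 alone (0.000153).

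NRF1, a nuclear transcription factor known for binding promoters of mitochondrial genes, is itself a member, and its motif was looked for in member promoters. Promoters of 300 bases (250 before and 50 after the start; RefSeq, GRCh38.p14) were found for 20 of the 23 nuclear members; TWNK, FASTKD5 and NRF1 were not matched. The letters GCGCNTGCG on either strand occurred in 5 of these 20 genes. Counted the same way, by genes with the letters in at least 1 of their listed promoters of this length, it occurred in 9.01% of all 27305 genes. The 27305 genes were not matched to the members for expression or base content, and no excess in the members was tested. The ETS motif CCGGAAG, bound by the GABP factor, occurred in 9 of the 20 and in 12.2% of all genes. The YY1 motif AAGATGGCG occurred in 2 of the 20 and in 2.14% of all genes, and the SP1 motif GGGGCGGGG in 2 of the 20 and in 18.5%. The stretches around the NRF1 matches follow, along each gene's strand, with the match in capitals; they are shown because these 5 genes and the factor itself are all members.
TFAM (chr10:58385322-58385380, plus strand): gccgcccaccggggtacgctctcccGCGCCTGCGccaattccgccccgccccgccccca
TFB2M (chr1:246566244-246566302, minus strand): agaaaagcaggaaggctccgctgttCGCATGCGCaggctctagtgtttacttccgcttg
TFB1M (chr6:155314582-155314641, minus strand): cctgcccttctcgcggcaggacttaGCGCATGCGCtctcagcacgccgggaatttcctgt
POLRMT (chr19:633521-633586, minus strand): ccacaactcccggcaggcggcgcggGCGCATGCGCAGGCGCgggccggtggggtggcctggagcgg
POLG2 (chr17:64497035-64497093, minus strand): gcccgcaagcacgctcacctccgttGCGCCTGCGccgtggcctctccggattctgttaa
In POLRMT 3 matches overlap, and in TFB1M 2. The matches describe letters in these windows, not binding. Of these 5 genes TFB2M fell, and the other 4 did not pass the test, with log2 fold changes of -0.46 for POLRMT, -0.37 for TFB1M, 0.079 for TFAM and 0.18 for POLG2. NRF1 (ENSG00000106459, chromosome 7, 129611714 to 129757082, plus strand) was at 5.97, 6.36, 4.88 and 6.05 FPKM in OGD-R, against 5.31, 5.49, 4.3999 and 3.89 FPKM in Controls 1 to 4. OGD-R 3 lay below Controls 1 and 2 and the other OGD-R libraries above all Controls (log2 fold change 0.24 ± 0.12, SE; limma adjusted p = 0.202), and it was called higher against Controls 3 and 4 alone (0.40; adjusted p = 0.00709).

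PPARGC1B, a coactivator that works with NRF1 and related factors to raise mitochondrial gene expression, was the 1 nuclear member that rose. PPARGC1B (ENSG00000155846, chromosome 5, 149730298 to 149855022, plus strand) was at 2.67, 2.54, 2.09 and 2.397 FPKM in OGD-R, against 2.01, 1.51, 1.08 and 1.08 FPKM in Controls 1 to 4. The groups did not overlap, though all values were low and OGD-R 3 was close to Control 1. Its log2 fold change was 0.51 ± 0.14 (SE; limma adjusted p = 0.0367). The call ended without Control 3, without Control 4 and without each OGD-R library in turn, with the highest adjusted p at 0.102.

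Replication genes held another of the falls. TWNK, the helicase that unwinds mitochondrial DNA (ENSG00000107815, chromosome 10, 100987367 to 100994401, plus strand), was at 8.65, 8.07, 9.18 and 8.57 FPKM in OGD-R, against 12.3, 11.2, 11.96 and 9.84 FPKM in Controls 1 to 4. The groups did not overlap and the pairs of Controls lay close together. It fell by 0.36 in log2 units (SE 0.093; limma adjusted p = 0.0301), a call lost without any single OGD-R library and without Control 1 or 3, where the highest adjusted p was 0.101. POLG, the catalytic subunit of the mitochondrial DNA polymerase (ENSG00000140521, chromosome 15, 89305198 to 89334861, minus strand), was at 20.3, 18.2, 18.8 and 19.3 FPKM in OGD-R, against 19.7, 23.3, 27.6 and 23.6 FPKM in Controls 1 to 4. OGD-R 1 overlapped Control 1, and the log2 fold change of -0.28 ± 0.11 (SE) did not pass (limma adjusted p = 0.112) but did without Control 1 (0.0381) and against Controls 3 and 4 alone (0.00172). POLG2, its accessory subunit (ENSG00000256525, chromosome 17, 64477785 to 64497036, minus strand), was at 4.56, 4.33, 4.41 and 4.17 FPKM in OGD-R, against 4.69, 5.13, 3.35 and 2.33 FPKM in Controls 1 to 4. SSBP1, which coats single-stranded mitochondrial DNA (ENSG00000106028, chromosome 7, 141738321 to 141787922, plus strand), was at 90.5, 112, 104 and 107 FPKM in OGD-R, against 127, 130.1, 90.4 and 88.04 FPKM in Controls 1 to 4. Both lay between the pairs of Controls, with log2 fold changes of 0.18 ± 0.19 for POLG2 and -0.056 ± 0.16 for SSBP1 (SE; limma adjusted p = 0.537 and 0.831). POLG2 was called higher against Controls 3 and 4 alone (0.49; limma adjusted p = 0.00311) and SSBP1 lower against Controls 1 and 2 alone (-0.32; 0.00959).

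Of the partners in mitochondrial RNA decay, the helicase fell and the nuclease did not pass the test. SUPV3L1, the helicase of the mitochondrial RNA-degrading complex (ENSG00000156502, chromosome 10, 69180232 to 69209099, plus strand), was at 14.1, 14.2, 14.3 and 15.4 FPKM in OGD-R, against 18.1, 19.5, 23.1 and 20.1 FPKM in Controls 1 to 4. Every OGD-R library lay below every Control, and Controls 3 and 4 were here the higher pair. SUPV3L1 fell by 0.45 in log2 units (SE 0.093; limma adjusted p = 0.0132) and stayed called with each single library left out, with adjusted p between 0.0119 and 0.0499. PNPT1, its partner exonuclease (ENSG00000138035, chromosome 2, 55634265 to 55693910, minus strand), was at 13.6, 14.9, 12.99 and 14.4 FPKM in OGD-R, against 19.8, 21.9, 12.9 and 12.2 FPKM in Controls 1 to 4. OGD-R lay below Controls 1 and 2 and slightly above Controls 3 and 4 (log2 fold change -0.20 ± 0.19, SE; limma adjusted p = 0.491), and it was called lower against Controls 1 and 2 alone (-0.54; adjusted p = 0.000364).

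The 3 members that take part in cutting transfer RNAs out of the long transcripts lay between the pairs of Controls. ELAC2, which cuts at their far end (ENSG00000006744, chromosome 17, 12992391 to 13018187, minus strand), was at 42.8, 40.8, 39.5 and 41.7 FPKM in OGD-R, against 55.6, 53.2, 32.5 and 32.8 FPKM in Controls 1 to 4. TRMT10C, a subunit of mitochondrial RNase P, which cuts at the near end (ENSG00000174173, chromosome 3, 101561862 to 101566446, plus strand), was at 22.7, 25.9, 22.4 and 26.1 FPKM in OGD-R, against 34.5, 34.4, 21.4 and 19.6 FPKM in Controls 1 to 4. HSD17B10, a dehydrogenase that is also an RNase P subunit (ENSG00000072506, chromosome X, 53431258 to 53434373, minus strand), was at 65.8, 61.8, 59.2 and 61.98 FPKM in OGD-R, against 83.4, 78.2, 46.7 and 39.3 FPKM in Controls 1 to 4. In all 3 genes every OGD-R library was below Controls 1 and 2 and above Controls 3 and 4, as for 13.6% of all genes. With all libraries their log2 fold changes were -0.033 ± 0.19, -0.13 ± 0.20 and 0.077 ± 0.24 (SE), and none passed. Against Controls 1 and 2 alone they were called lower (-0.39, -0.49 and -0.37), and against Controls 3 and 4 alone higher (0.33, 0.23 and 0.53). Of all genes, 32.4% were called lower in the first of these fits and 39.2% higher in the second. PRORP, another RNase P subunit but not a member, did not pass with all libraries (log2 fold change -0.38, limma adjusted p = 0.292). PRORP was called lower against Controls 1 and 2 alone (-0.70, limma adjusted p = 0.00622). Against Controls 3 and 4 alone it was not called (-0.065, limma adjusted p = 0.786).

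LRPPRC and SLIRP form the complex that keeps mitochondrial messenger RNAs stable. LRPPRC (ENSG00000138095, chromosome 2, 43886508 to 43996005, minus strand) was at 42.7, 44.6, 40.2 and 45.5 FPKM in OGD-R, against 49.6, 54.7, 45.6 and 39.2 FPKM in Controls 1 to 4. SLIRP (ENSG00000119705, chromosome 14, 77708071 to 77761104, plus strand) was at 29.6, 45.1, 42.2 and 30.2 FPKM in OGD-R, against 51.6, 35.5, 23.5 and 28.4 FPKM in Controls 1 to 4. The groups overlapped in both genes. In OGD-R, libraries 2 and 3 were high for SLIRP and libraries 1 and 4 low, as for MT-ND3, while for MT-ATP8 libraries 1 and 4 were the high ones. The log2 fold changes were -0.12 ± 0.11 and 0.11 ± 0.25 (SE; limma adjusted p = 0.507 and 0.783). LRPPRC was called lower against Controls 1 and 2 alone (-0.26; limma adjusted p = 0.0118) and SLIRP higher against Controls 3 and 4 alone (0.47; 0.0355).

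Genes of the FASTK family, RNA-binding proteins that act on single mitochondrial transcripts, were each high in Controls 1 and 2 and low in Controls 3 and 4. FASTKD1 (ENSG00000138399, chromosome 2, 169529749 to 169573875, minus strand) was at 18.8, 19.2, 18.1 and 20.3 FPKM in OGD-R, against 17.2, 18.6, 9.87 and 8.21 FPKM in Controls 1 to 4. OGD-R lay beside Controls 1 and 2 and about 2-fold above Controls 3 and 4, with a log2 fold change of 1.01 against these alone and of 0.55 ± 0.24 with all libraries (SE; limma adjusted p = 0.151). FASTKD2, which binds the large ribosomal RNA (ENSG00000118246, chromosome 2, 206765357 to 206792509, plus strand), was at 19.1, 20.8, 18.2 and 21.9 FPKM in OGD-R, against 24.7, 29.5, 16.9 and 14.5 FPKM in Controls 1 to 4. FASTKD3 (ENSG00000124279, chromosome 5, 7859159 to 7869037, minus strand) was at 5.64, 5.78, 5.53 and 6.71 FPKM in OGD-R, against 6.66, 7.32, 3.37 and 3.34 FPKM in Controls 1 to 4. FASTKD5, which acts where messenger RNAs are not separated by a transfer RNA (ENSG00000215251, chromosome 20, 3146519 to 3159897, minus strand), was at 14.1, 15.2, 14.2 and 14.8 FPKM in OGD-R, against 14.2, 15.9, 11.9 and 9.86 FPKM in Controls 1 to 4. With all libraries 0 of the 4 passed the test, and against Controls 3 and 4 alone 4 of the 4 were called higher (39.2% of all genes in that fit), with log2 fold changes from 0.33 to 1.01. FASTKD2 was called lower against Controls 1 and 2 alone (-0.42; limma adjusted p = 0.00497).

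**Figure D5:**
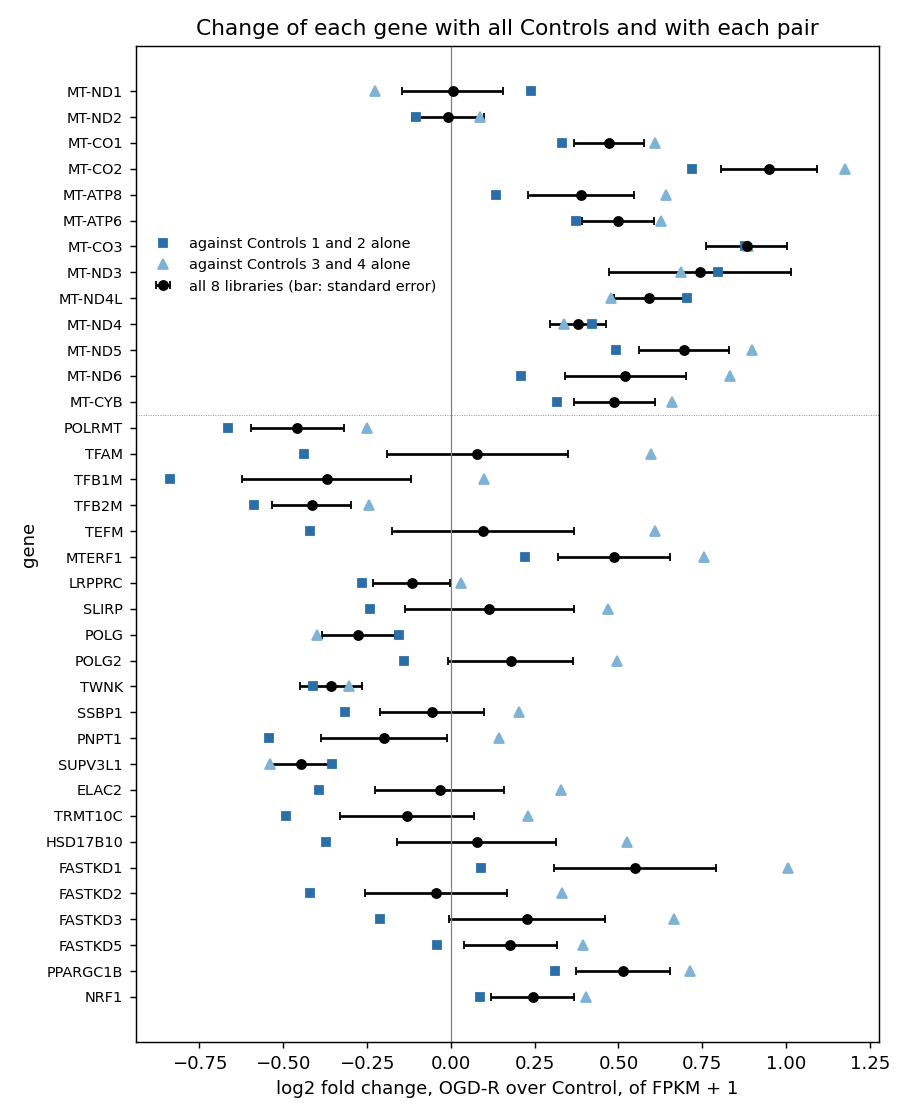
Each row gives the log2 fold change of FPKM + 1, OGD-R over Control, of 1 gene: with all 8 libraries (black, bars are standard errors), against Controls 1 and 2 alone (squares) and against Controls 3 and 4 alone (triangles). The mitochondrial messenger RNAs above the dotted line, but for MT-ND1 and MT-ND2, lie right of 0 in all 3 fits, whereas many nuclear genes below it change side with the pair of Controls.

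Other genes of mitochondrial gene expression, taken from lists of known function, were mostly not called. Of 16 genes of mitochondrial DNA upkeep and nucleotide supply, 2 fell and 0 rose (9.69% and 10.2% of all genes; median log2 fold change -0.23, against 0.02 over all genes). TK2, the mitochondrial thymidine kinase, was at 2.87, 2.66, 2.89 and 2.91 FPKM in OGD-R, against 3.62, 4.102, 3.76 and 3.88 FPKM in Controls 1 to 4, and fell by 0.34 on the log2 scale (limma adjusted p = 0.02). SLC25A33, a pyrimidine nucleotide carrier, was at 1.27, 1.35, 1.18 and 1.57 FPKM in OGD-R, against 2.196, 2.12, 2.94 and 2.42 FPKM in Controls 1 to 4, and fell by 0.54 (limma adjusted p = 0.0113). Both lay below every Control in every OGD-R library. Of 31 genes of RNA processing, modification and decay, 1 fell and 0 rose (median -0.02). REXO2, an oligoribonuclease that clears short RNAs, was at 47.9, 50.9, 53.5 and 49.7 FPKM in OGD-R, against 66.5, 64.2, 61.97 and 62.1 FPKM in Controls 1 to 4, and fell by 0.33 (limma adjusted p = 0.0191). Of 13 translation factors, 1 rose and 0 fell (median 0.09). MTRF1, a release factor, was at 12.3, 11.4, 12.04 and 12.1 FPKM in OGD-R, against 7.94, 10.1, 7.81 and 6.92 FPKM in Controls 1 to 4, with a log2 fold change of 0.51 (limma adjusted p = 0.016). Over these 60 genes together, 1 rose and 3 fell with all libraries, 3 were called higher and 32 lower against Controls 1 and 2 alone (22.8% and 32.4% of all genes), and 28 higher and 7 lower against Controls 3 and 4 alone (39.2% and 28.4% of all genes).

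Regulators of mitochondrial biogenesis moved in both directions. Of 12 listed, 10 were tested, and 2 rose and 2 fell (10.2% and 9.69% of all genes, median -0.19, against 0.02 over all genes). GABPA, the DNA-binding subunit of the ETS factor GABP, was at 6.65, 6.77, 6.67 and 6.77 FPKM in OGD-R, against 4.75, 6.102, 4.72 and 4.18 FPKM in Controls 1 to 4, with a log2 fold change of 0.39 (limma adjusted p = 0.0371). GABPB1, its partner subunit, was at 12.9, 11.6, 13.1 and 12.3 FPKM in OGD-R, against 16.8, 16.6, 23.04 and 22.9 FPKM in Controls 1 to 4, and fell by 0.61 on the log2 scale (limma adjusted p = 0.0145). GABPA and GABPB1 thus differed in direction. GABPB2, another partner subunit, was not called with all libraries (log2 fold change 0.33, limma adjusted p = 0.0968). GABPB2 was called higher against Controls 3 and 4 alone (0.51, limma adjusted p = 0.000592) and with scaling by genes outside the mitochondrial genome (0.38, limma adjusted p = 0.0383). PPRC1, a coactivator related to PPARGC1B, was at 14.98, 13.1, 13.4 and 13.8 FPKM in OGD-R, against 18.1, 19.01, 24.2 and 21.6 FPKM in Controls 1 to 4, and fell by 0.55 (limma adjusted p = 0.0106). SP1, a general activator, was at 20.6, 20.1, 19.9 and 21.4 FPKM in OGD-R, against 12.3, 15.6, 17.3 and 17.1 FPKM in Controls 1 to 4, with a log2 fold change of 0.39 (limma adjusted p = 0.0486). All 8 of the called genes named from these lists were also called against each pair of Controls alone, in the same direction. They had been picked by the fit with all libraries, which shares its libraries with both of these fits. Of all genes, 22.8% were called higher and 32.4% lower against Controls 1 and 2 alone. Against Controls 3 and 4 alone these shares were 39.2% and 28.4%. SP1 lost its call with scaling by the median ratio (limma adjusted p = 0.088). PPARGC1A, the best known coactivator of this family, was under 0.14 FPKM in every library and was not tested.

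Nuclear-encoded subunits of the same respiratory complexes were set beside the 13 mitochondrial messenger RNAs. Of 41 such subunits on the list, 5 rose and 0 fell (10.2% and 9.69% of all genes). Those 5, named after their values were seen, were UQCRC2 of complex III, COX6B1 and COX7C of complex IV and ATP5PF and ATP5MC2 of complex V. In all, 41 of 41 log2 fold changes were above 0 (40 with scaling by the median ratio; 6086 of 11740 over all genes), with a median of 0.39 (0.50 for the mitochondrial messenger RNAs). Against Controls 1 and 2 alone 5 of the 41 were called higher and 11 lower (22.8% and 32.4% of all genes in that fit). The median of the nuclear subunits was then -0.04, with 24 of 41 below 0, and that of the mitochondrial messenger RNAs 0.37, with 1 of 13 below 0. Against Controls 3 and 4 alone 39 of the 41 were called higher and 0 lower (39.2% and 28.4% of all genes in that fit). The medians were then 0.81 for the nuclear subunits and 0.64 for the mitochondrial messenger RNAs. The difference between the lists was not tested.

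The large share of mitochondrial messenger RNAs touches every other value, since FPKM is relative to the library total. Scaled by the sum of all genes outside the mitochondrial genome, 9 of the 13 mitochondrial messenger RNAs were called higher and 0 lower, and of the 23 nuclear members 2 were called higher and 3 lower. All genes then split into 13.6% higher and 7.42% lower (1600 and 871 genes, against 1202 and 1138 with values as deposited). Scaled by the median ratio of genes, 7 of the 13 were called higher and 0 lower, and of the 23 nuclear members 2 were higher and 4 lower (all genes 10.9% and 10.5%). Near-identical copies of mitochondrial genes in the nuclear genome could take or lend fragments. Of 14 such copies looked for, 4 were in the tables, and these are copies of a mitochondrial ribosomal RNA gene. No copy of any of the 13 messenger RNA genes was found among them, so such sharing could not be examined for the 13. The highest of the 4 was MTRNR2L12 with 2.17, 2.27, 2.19 and 2.39 FPKM in OGD-R, against 1.101, 1.06, 6.71 and 7.76 FPKM in Controls 1 to 4. The others were not analysed here.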

How the data were processed

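RNA was sequenced from 4 OGD-R and 4 Control libraries of HaCaT cells, with groups taken from sample titles; total RNA and both a NEBNext and a SMARTer kit are named in the labels' protocols. Aligner, counter, build and annotation: not given in the sources used here. Each library had 1 table of 24252 rows from the authors, 4278 of them newly assembled genes, and the deposited values were read as FPKM from the values themselves. In single-exon genes, 8 to 15 of 75 to 100 low values per library, times the gene length, lay within 0.2% of 1 number, which is limited evidence. The column of Control 3 is headed C3, and its group was taken from the title. All 19974 Ensembl IDs were found in GENCODE 29 (GRCh38), which gave the coordinates. Any 2 libraries had at most 1 identical value above 0.

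The two-sided test was limma 3.58.1 (R 4.3.3, intensity trend) on log2(FPKM + 1), over 11740 genes averaging 1 FPKM or more, adjusted by Benjamini-Hochberg over all of them. Fold changes on this scale understate the change of low genes. Symbols absent from the tables were matched by gene ID. The members, gene lists and tests were chosen with earlier results of these data known. All members are named, and from the other lists up to 4 called genes each by smallest p. PRORP and GABPB2, which were not called with all libraries, are named beside related genes. Alternatives covered the pseudocount (0.1), filters, scalings, weights, a replicate block and libraries left out; dropping the intensity trend was chosen after seeing the data. Figures used matplotlib 3.10.9 (Python 3.11.15).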

Additional observations from a re-analysis of the deposited data

Results flagged for a closer look

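Within the groups of 4 libraries, 3 of 74 comparisons had a library far from the other 3, where chance alone marks about 1 in 20. MT-ND2 was at 3478 FPKM in Control 3, below the other Controls. TFB1M was at 8.26 FPKM in OGD-R 2, above the other OGD-R libraries. SUPV3L1 was at 15.4 FPKM in OGD-R 4, above the other OGD-R libraries and below every Control.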

How the results depend on the processing

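The 8 mitochondrial calls kept their direction under every alternative run, and 0 of the 13 were called lower in any. Their number was 0 with no filter on low genes, where the standard error of MT-CO2 was 0.361 in place of 0.144, and 8 with neither filter nor intensity trend, an alternative chosen after seeing the data; leaving out 1 library gave 4 to 9. Over all 36 members, called higher numbered 9, against 0 with no filter, 24 without Controls 1 and 2 and 4 to 10 with 1 library left out; called lower numbered 3, against 1 with weights by group, 14 without Controls 3 and 4, 5 without Controls 1 and 2, and 1 to 4 with 1 library left out. Over all genes 2340 were called (1202 higher, 1138 lower), against 6480 (2673 and 3807) without Controls 3 and 4, 7940 (4603 and 3337) without Controls 1 and 2, 689 higher at a mean of at least 5 FPKM, and 1276 to 2608 with 1 library left out (711 to 1426 higher, 561 to 1312 lower). The share difference of 7.71 points was 13.4 points with a denominator of genes outside the mitochondrial genome, and 6.80 to 8.29 points with 1 library left out. The cause of these moves was not tested.

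With the replicate block, which the labels do not call a pairing, 1132 genes were called (625 higher, 507 lower), and 0 members lower; it ended the calls of MT-CO1, MT-CYB, PPARGC1B, TFB2M, TWNK and SUPV3L1. Same-numbered libraries' deviations correlated at 0.045 to 0.0646.

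Log2 fold changes that changed sign all belonged to members not called with all libraries. Without Controls 3 and 4 these were TFAM (-0.44), TEFM (-0.42), HSD17B10 (-0.37), SLIRP (-0.24), FASTKD3 (-0.21), POLG2 (-0.14) and FASTKD5 (-0.041). Without Controls 1 and 2 they were ELAC2 (0.33), FASTKD2 (0.33), TRMT10C (0.23), SSBP1 (0.20), PNPT1 (0.14), TFB1M (0.10), MT-ND2 (0.086), LRPPRC (0.030) and MT-ND1 (-0.23). With scaling by genes outside the mitochondrial genome they were MT-ND2 (0.066), ELAC2 (0.041), FASTKD2 (0.028) and SSBP1 (0.018), and MT-ND1 turned to -0.013 with the median ratio and to -0.065 with equal sums. With 1 library left out the range was -0.092 to 0.15 for MT-ND1, -0.11 to 0.033 for MT-ND2, -0.13 to 0.26 for TFAM, -0.11 to 0.31 for TEFM, -0.048 to 0.32 for SLIRP, -0.15 to 0.037 for SSBP1, -0.16 to 0.10 for ELAC2, -0.11 to 0.24 for HSD17B10 and -0.20 to 0.12 for FASTKD2.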
